A study of Mus musculus with 6 samples.

Results

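Small RNA libraries of purified round spermatids (early haploid male germ cells) were sequenced, 3 from Miwi knockout (KO) and 3 from wild-type (WT) mice, and the reads counted per reference RNA. Both genotypes were C57BL/6 (the husbandry notes say C57BL/6J) at postnatal day 21, and the labels name no agent given to the sequenced cells. The KO is global, in a line re-established from frozen sperm, and per the study's design KO spermatids develop no further than step 4. How the cells were purified, and the steps present in the WT fraction, are not stated in the labels. The microRNAs (miRNAs) described here are all arms of miR-191, miR-425, miR-122 and miR-1839, chosen by miRBase name, whatever their counts. The deposited names are mmu-miR-191-5p, mmu-miR-425-5p, mmu-miR-122-5p, mmu-miR-1839-5p and the 3p arm of each. They make up 8 of the 1900 miRNA entries and 8 of the 45932 entries of the deposited small RNA table. The libraries are numbered 1 to 3 in each genotype and are not said to come from separate animals, so a p-value here covers the spread among these libraries and no more, and that spread may be technical.

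A miRNA is cut from a hairpin, and its 5p or 3p arm enters an Argonaute protein of the AGO clade, where bases 2 to 8, the seed, lead it to target mRNAs. MIWI (PIWIL1) belongs to the other clade, the PIWI proteins, and binds pachytene piRNAs. miR-191 and miR-425 come from neighbouring hairpins and are found in many tissues, blood cells and sperm among them. miR-122 is the main miRNA of hepatocytes and has been described in postmeiotic male germ cells, where the transition protein gene Tnp2 is a described target. miR-1839 is a little-studied miRNA whose hairpin overlaps a small Cajal body RNA (scaRNA), a class of nuclear guide RNA.

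The mature sequences show which seeds the counted RNAs carry. RefSeq entries of build GRCm38.p6 matched 5 of the 8 member entries, and the length of each equalled that of the deposited entry. Each is written 5′ to 3′ with its seed in capitals.
miR-191-5p: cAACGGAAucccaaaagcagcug
miR-191-3p: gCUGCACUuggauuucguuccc
miR-425-5p: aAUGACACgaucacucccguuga
miR-425-3p: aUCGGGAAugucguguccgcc
miR-1839-5p: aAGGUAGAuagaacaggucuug
The 5 seeds all differed. Among 1738 mature entries of that RefSeq table, no other miRNA carried the seed of miR-191-5p, miR-191-3p, miR-425-3p or miR-1839-5p. The seed of miR-425-5p was shared with miR-489-3p, which had 0 counts in the 6 libraries.
miR-489-3p: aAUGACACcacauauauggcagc
The GC content of the mature members ranged from 40.9% in miR-1839-5p to 61.9% in miR-425-3p, with 52.2% in miR-191-5p and 47.8% in miR-425-5p.

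The hairpins of miR-191, miR-425 and miR-1839 lie at 2 places outside protein-coding exons. In GRCm38, Mir191 (chr9:108568319-108568392) and Mir425 (chr9:108568777-108568861) are on the plus strand with 384 bases between them, 1024 bases upstream of Dalrd3. Both sit within the long noncoding RNA 4833445I07Rik, in an exon of 1 of its 2 annotated transcripts. A further miRNA gene, Gm24083, is annotated over Mir191 on the minus strand. Mir1839 (chr7:81529916-81529988, plus strand) lies within the long noncoding RNA 2900076A07Rik, in an exon of 1 of its 8 transcripts. It overlaps the scaRNA annotated under the same name at chr7:81529855-81529981. The submitters' processing notes name mm9, but the miRNA entries of the table carry no genome positions, so these GRCm38 places come from the annotation alone.

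The libraries held between 146487 and 246030 miRNA counts. miRNAs made up 18.1% to 19.6% of the table in KO and 4.88% to 5.96% in WT. For that reason each level below is given in counts per 1000000 miRNA counts of its library (ppm). On this scale a member can only be compared with the other miRNAs, and in such bulk samples fewer cells that carry an RNA cannot be told apart from less of it per cell. The 8 members together held 2.44% ± 0.325 (KO) and 2.09% ± 0.316 (WT) of all miRNA counts (SD, n = 3), and miR-191-5p alone held 83.0% of their counts. The mRNA of Piwil1, the targeted gene, lies outside a small RNA table, and the labels could not be checked against it.

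miR-191-5p was abundant in both genotypes and did not pass the test between them. KO replicates 1 to 3 held 18229, 19981 and 24518 ppm, and WT replicates 1 to 3 held 17863, 13820 and 18538 ppm. KO replicate 3 was the highest library and WT replicate 2 the lowest, and KO replicate 1 lay below WT replicate 3, so the genotypes overlapped. It ranked between 7 and 12 among the miRNA entries of the KO libraries and between 11 and 14 in WT. As a scale, the most abundant entries, miR-34b-5p and miR-34c-5p, miRNAs typical of meiotic and postmeiotic germ cells, and miR-16-5p, a miRNA of most tissues, were at 209594 ± 19123, 81323 ± 2858 and 66706 ± 8234 in KO (SD, n = 3). In WT they were at 196035 ± 6885, 67020 ± 3003 and 69686 ± 3384. The KO mean of miR-191-5p was 20909 ± 3246 ppm and the WT mean 16740 ± 2552 ppm (SD, n = 3), a 1.25-fold difference. With edgeR, fitted over the 24682 RNAs of the table that passed a filter on low counts, the log2 change of miR-191-5p was 0.32 ± 0.16 (SE), with adjusted p = 0.0696. The approximate 95% interval ran from -0.00 to 0.64. The exact permutation test of the same shares gave p = 0.2 (two-sided, n = 3), where 0.1 is the smallest that 3 against 3 allow.

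Whether miR-191-5p passed depended on single libraries. Without KO replicate 1 the log2 change of miR-191-5p was 0.41 and passed (edgeR adjusted p = 0.0468), and without WT replicate 3 it was 0.40 and passed (edgeR adjusted p = 0.0176). Without KO replicate 3 it was 0.19 (edgeR adjusted p = 0.314) and without WT replicate 2 it was 0.20 (edgeR adjusted p = 0.254). The spread was wider than counting error: the 95% Wilson interval of KO replicate 3, 23912 to 25140 ppm, lay above that of KO replicate 1, 17695 to 18778. These intervals cover counting error only, since reads without molecular identifiers are not independent molecules.

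miR-425-5p was several times less abundant than its neighbour and did not pass either. KO replicates 1 to 3 held 3647, 2785 and 3431 ppm, and WT replicates 1 to 3 held 3683, 3397 and 4796 ppm. WT replicate 3 was the highest library and KO replicate 2 the lowest, and the other 4 libraries overlapped. It ranked between 47 and 58 in KO and between 37 and 49 in WT. The KO mean was 3288 ± 448 ppm and the WT mean 3959 ± 739 ppm (SD, n = 3). On the log2 scale this was a change of -0.27 ± 0.17 (SE; edgeR adjusted p = 0.153), with an approximate 95% interval from -0.61 to 0.07, and the exact permutation p was 0.3 (n = 3). Without KO replicate 2 the change was -0.16 and without WT replicate 3 it was -0.10, neither past the threshold.

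**Figure D1:**
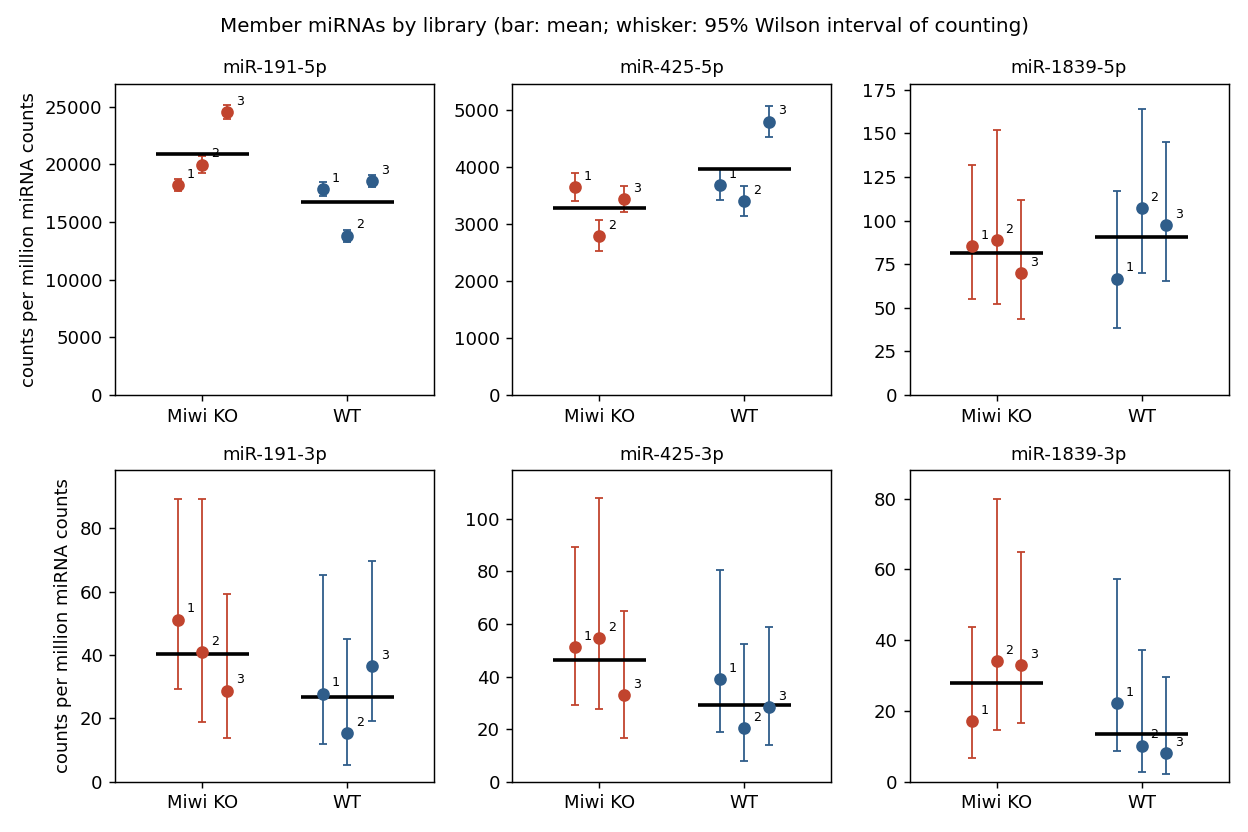
Levels of 6 member entries in counts per 1000000 miRNA counts, ppm (vertical axes, each from 0), with 1 point per library labelled by replicate number, KO on the left and WT on the right. Black bars are group means and whiskers are 95% Wilson intervals of counting. The genotypes overlap in all 6 panels, and the whiskers are wide for the entries of the lower row and for miR-1839-5p.

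The passenger arms of both hairpins were rare. miR-191-3p had 12, 6 and 7 counts in the KO libraries, against 5, 3 and 9 in the WT libraries. miR-425-3p had 12, 8 and 8 counts in KO, against 7, 4 and 7 in WT. In ppm, the KO and WT means of miR-191-3p were 40.3 ± 11.2 and 26.6 ± 10.7, and those of miR-425-3p were 46.2 ± 11.7 and 29.3 ± 9.29 (SD, n = 3). Both overlapped between the genotypes. Their log2 changes were 0.55 ± 0.46 (SE, edgeR adjusted p = 0.271) and 0.63 ± 0.45 (SE, edgeR adjusted p = 0.19). The change of miR-191-3p ranged from 0.29 without WT replicate 2 and 0.30 without KO replicate 1 to 0.89 without WT replicate 3, and was 1.12 without both replicate 3 libraries (edgeR adjusted p = 0.0649), none past the threshold. At fewer than 13 counts per library, changes of this size were not detectable.

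miR-1839-5p was scarce in all 6 libraries. It had 20, 13 and 17 counts in the KO libraries, against 12, 21 and 24 in the WT libraries. KO replicates 1 to 3 thus held 85.2, 88.7 and 69.8 ppm, and WT replicates 1 to 3 held 66.8, 107.1 and 97.5 ppm. WT replicate 1 was the lowest and WT replicate 2 the highest, so the KO values lay within the WT range. The means were 81.2 ± 10.1 and 90.5 ± 21.1 (SD, n = 3), and the entry ranked between 251 and 284. The fitted log2 change of -0.18 ± 0.35 (SE) did not pass (edgeR adjusted p = 0.643), and its approximate 95% interval, from -0.87 to 0.52, leaves room for a change of either sign. The counting interval of KO replicate 2 alone, 51.9 to 151.8 ppm, covered the values of all 6 libraries. The other arm, miR-1839-3p, had 4, 5 and 8 counts in KO, against 4, 2 and 2 in WT. It did not pass the filter on low counts, and its exact permutation p was 0.2 (n = 3). The scaRNA entry that overlaps this hairpin had 0 counts in each KO library and 3, 1 and 1 in WT. Whether 1 read could count for both entries is not known from the labels or headers.

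miR-122 was at or below the limit of detection in both genotypes. miR-122-5p, the arm known from liver, had 0 counts in 5 libraries and 1 count in WT replicate 3. A count of 0 allows up to 3 counts, which is 12.3 to 20.5 ppm in the KO libraries and 15.3 to 16.7 in WT replicates 2 and 1. miR-122-3p had 1, 0 and 1 counts in KO, against 1, 0 and 2 in WT. No fold change is given, since both genotypes lie at or under that limit. miR-122 was thus not detected above that limit in round spermatids at this age and depth. Later spermatids were not sequenced, so its level there was not measured.

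Ordered by level, miR-191-5p came first in each of the 6 libraries, then miR-425-5p, then miR-1839-5p. The next 3, miR-425-3p, miR-191-3p and miR-1839-3p, overlapped in their ranges across libraries. Both arms of miR-122 came last, except that miR-122-3p was level with miR-1839-3p in WT replicate 3, at 2 counts each. All member entries are 20 to 23 nt long, so no length scaling was applied.

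None of the 5 tested entries (both arms of miR-191, both arms of miR-425, and miR-1839-5p) was called by edgeR at an adjusted p of 0.05, and DESeq2 called 0 as well. In this edgeR fit with miRNA totals, 0 of them had an unadjusted p under 0.05. In the same edgeR fit 22.1% of the 348 tested miRNAs were called, 8.33% up and 13.8% down. Of all 24682 RNAs 83.0% were called, 6.3% up and 76.7% down. With so many calls, adjusted p lay close to unadjusted p, such as 0.0467 against 0.0386 for miR-18a-5p. The adjustment thus covers all RNAs and does not hold false calls to 0.05 among the miRNAs alone. Of the 348 miRNAs, 87 had an unadjusted p under 0.05. The genotypes overlapped in the shares of all 5 tested entries, while 34.5% of the 348 tested miRNAs had shares without overlap. The members that did not pass the filter, miR-1839-3p and both arms of miR-122, also overlapped, at few counts per library. The median log2 change of the 348 miRNAs was -0.11, with quartiles of -0.42 and 0.17, and that of all RNAs was -2.14. The members' changes of 0.32, 0.55, -0.27, 0.63 and -0.18 lie on both sides of the miRNA median. Set against the whole table instead (TMM factors of all entries, which moved the miRNA median by 1.92), all 5 passed upwards, as did 97.1% of miRNAs. On that scale miR-425-5p and miR-1839-5p changed sign, to 1.67 and 1.75.

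**Figure D2:**
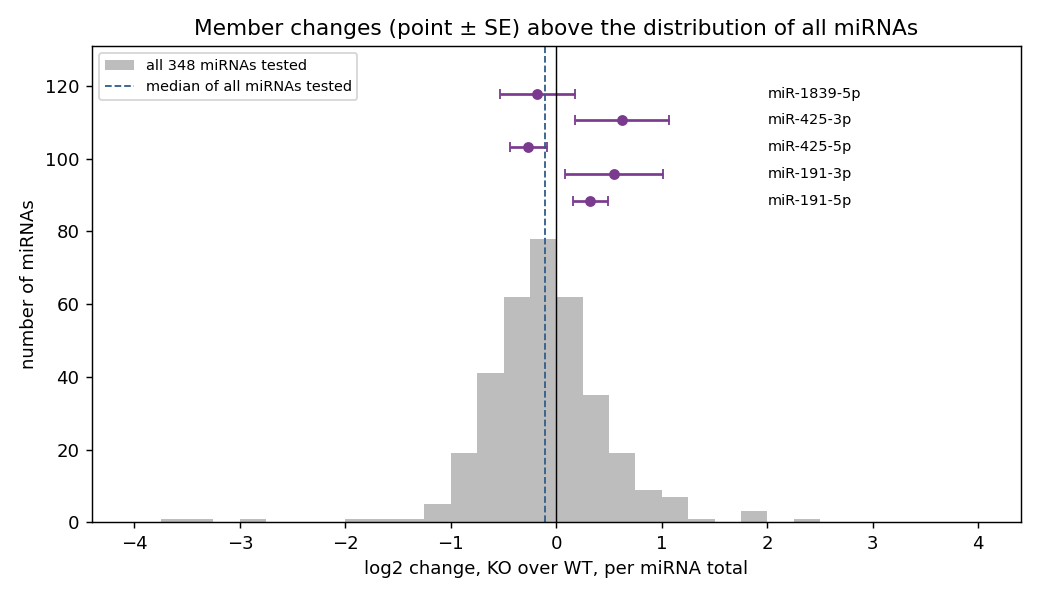
Log2 change of KO over WT per miRNA total (horizontal axis) for the 348 tested miRNAs as a histogram (vertical axis, number of miRNAs), with the 5 tested member entries drawn above it as points ± SE. The dashed line is the median of all tested miRNAs, -0.11, and the members lie between -0.27 and 0.63.

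Ratios within a library do not depend on scaling. miR-191-5p and miR-425-5p, from hairpins 384 bases apart, had a ratio of 5.00, 7.17 and 7.15 in KO replicates 1 to 3, against 4.85, 4.07 and 3.87 in WT replicates 1 to 3. KO replicates 2 and 3 were high, while KO replicate 1 lay just above WT replicate 1, so the genotypes did not overlap but nearly met. The log2 ratio had a KO mean of 2.67 ± 0.30 and a WT mean of 2.08 ± 0.17 (SD, n = 3), a difference of 0.58 or 1.5-fold. In the exact permutation test p was 0.1, which 3 against 3 libraries cannot go below, and adjusted p = 0.6 over the 6 pairs of hairpins compared. Among 196 pairs of tested miRNAs from different hairpins within 10000 bases on 1 strand, 28.6% had ratios without overlap, and among all 60378 pairs 32.7% had. A ratio without overlap was thus common among miRNA pairs, neighbours included.

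The other ratios between members overlapped. The log2 ratio of miR-191-5p to miR-1839-5p differed by 0.45 (exact permutation p = 0.4, n = 3) and that of miR-425-5p to miR-1839-5p by -0.13 (exact permutation p = 0.5, n = 3). The latter was 0.058 without KO replicate 2 and 0.022 without WT replicate 1. The 3 pairs with miR-122-3p rest on 0 to 2 counts per library and are not described.

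The 5p arm held most counts of the miR-191, miR-425 and miR-1839 hairpins in both genotypes, while miR-122 had 1 count of its 5p and 5 of its 3p arm in all. miR-191-5p held between 99.72% and 99.89% of the counts of its hairpin in every library, and miR-425-5p between 98.1% and 99.4%. miR-1839-5p held 83.3%, 72.2% and 68.0% in the KO libraries, against 75%, 91.3% and 92.3% in the WT libraries, from 16 to 26 counts of both arms per library. The ratio of miR-425-5p to miR-425-3p was 71.3, 51.0 and 104.5 in the KO libraries, against 94.6, 166.5 and 168.6 in the WT libraries. KO replicate 3 reached above WT replicate 1, so these overlapped. The log2 arm ratio differed by -0.27 for miR-191, -0.89 for miR-425 and -1.12 for miR-1839, each lower in KO, with exact permutation p = 0.5, 0.2 and 0.2 (n = 3) and adjusted p = 0.5, 0.3 and 0.3 over the 3 hairpins. With 3 against 3 libraries this exact permutation test cannot go below p = 0.1, so it could not have called a difference at 0.05, and the libraries overlapped in each ratio. Of 75 hairpins with both arms tested, 26.7% had arm ratios without overlap.

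**Figure D3:**
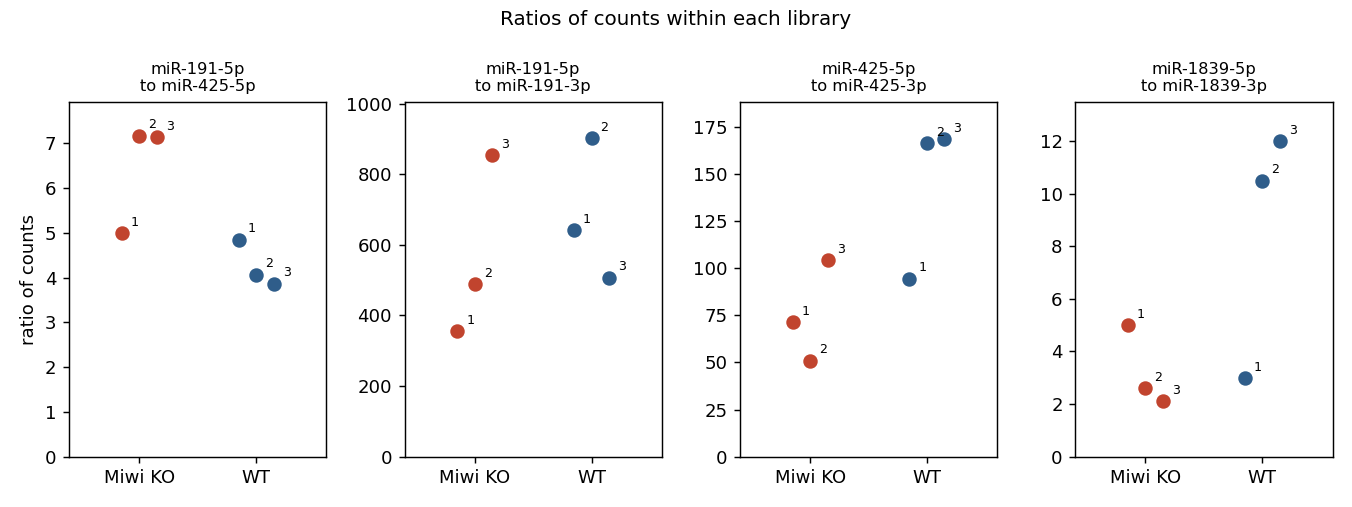
Ratios of counts within each library (vertical axes, each from 0), with 1 point per library labelled by replicate number. The ratio of miR-191-5p to miR-425-5p is 5.00 to 7.17 in KO and 3.87 to 4.85 in WT, and the arm ratios in the other 3 panels overlap.

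The miRNAs whose levels followed the members most closely differed from member to member. Over the 6 libraries, and among 204 other miRNAs with at least 100 counts in each genotype, miR-296-5p (r = 0.90) and miR-19b-3p (r = 0.86) were nearest to miR-191-5p. miR-1195 (r = 0.96) and miR-423-5p (r = 0.95) were nearest to miR-425-5p. miR-463-5p (r = 0.94) and miR-471-5p (r = 0.93), both from an X-linked cluster expressed in male germ cells, were nearest to miR-1839-5p. These r values describe 6 points that share their library totals. They were picked as the highest of 204 for each member, so high values arise from the picking alone. miR-1839-5p had only 12 to 24 counts per library, and whether its r values exceed counting error was not tested. miR-296-5p rose in KO by 1.12 ± 0.26 on the log2 scale (SE; edgeR adjusted p = 0.000193). miR-1195 and miR-423-5p fell by 0.55 and 0.72, with edgeR adjusted p = 0.0173 and 0.0121. Without KO replicate 2 their changes were -0.37 and -0.56, and without WT replicate 3 they were -0.33 and -0.43, none of which passed. The changes of miR-19b-3p, miR-463-5p and miR-471-5p were 0.03, -0.07 and -0.15, which did not pass.

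Other miRNAs of sperm and late spermatids did not move in 1 direction. Of 13 tested miRNAs on that list 3 rose, 2 fell and 8 did not pass, where 8.33% of all tested miRNAs rose and 13.8% fell. The median log2 change was -0.14 against -0.11 for all tested miRNAs. miR-34b-5p and miR-34c-5p, the leading germ cell miRNAs, changed by 0.10 and 0.28, not past the threshold. Their 3p arms, not on the list and named after their values were seen, rose by 0.55 and 0.71. Both passed (edgeR adjusted p = 0.00459 and 0.000254). miR-18a-5p, of the miR-17-92 cluster, rose by 0.34 ± 0.16 (SE, edgeR adjusted p = 0.0467). The other calls on the list, named after their values were seen, were miR-184-3p at 1.90, miR-449a-5p at 0.44, miR-99a-5p at -0.67 and miR-103-3p at -0.39. The calls of miR-184-3p and miR-99a-5p held without each library in turn. That of miR-18a-5p was lost without WT replicates 1 or 3 and without KO replicates 1 or 2, that of miR-449a-5p without KO replicate 2 or WT replicate 1, and that of miR-103-3p without WT replicate 1 and without KO replicates 1 or 2. Their highest edgeR adjusted p in those fits was 0.162, 0.0577 and 0.0916, and their changes ranged from 0.23 to 0.44, from 0.36 to 0.56 and from -0.43 to -0.36.

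Markers of blood cells bear on miR-191 and miR-425, which blood cells also carry. The erythroid markers were scarce, with a summed level of 38.3 to 54.6 ppm in KO and 89.0 to 127.5 in WT for 4 measured of 5. miR-451a, the main erythrocyte miRNA, had 22 counts in KO and 53 in WT and fell by 1.25 ± 0.40 (SE, edgeR adjusted p = 0.00427). This call held without each KO library in turn. With any WT library left out, miR-451a did not pass the filter on low counts and was not tested. miR-144-3p had 3 and 11 counts, miR-486a-5p 2 and 5, and miR-144-5p 0 and 3. Leukocyte and platelet markers summed to 1970 to 2266 ppm in KO and 1574 to 2092 in WT. Of these 5 markers 1 rose and 0 fell, where 8.33% of all tested miRNAs rose and 13.8% fell. Their changes were 0.32 for miR-223-3p, -0.00 for miR-142a-3p and 0.28 for miR-142a-5p, which did not pass. miR-155-5p, named after its value was seen, rose by 1.29 (edgeR adjusted p = 0.00673), but by 0.99 and not past the threshold without WT replicate 3 (edgeR adjusted p = 0.0615). The part of blood cells in the levels of miR-191 and miR-425 was not tested.

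Markers of other cells that the purified fraction could hold mostly did not pass. Liver miRNAs other than miR-122 summed to 1597 to 1960 ppm in KO and 1740 to 1990 in WT. Of these 4 miRNAs 0 rose and 1 fell, against 8.33% and 13.8% of all tested miRNAs. miR-101b-3p, miR-192-5p and miR-194-5p changed by 0.03, -0.19 and 0.28, not past the threshold. miR-193b-3p, named after its value was seen, fell by 0.85 (edgeR adjusted p = 0.0384). That call was lost without KO replicates 1 or 2 and without WT replicate 3, where the change was -0.71, -0.68 and -0.69. Of 10 X-linked spermatocyte miRNAs 0 rose and 1 fell, where 8.33% of all tested miRNAs rose and 13.8% fell. Among them miR-741-3p was at -0.09, miR-743b-3p at -0.13 and miR-743a-3p at -0.10, not past the threshold. The fall was that of miR-880-3p, by 0.42, named after its value was seen and lost without KO replicate 1, WT replicate 1 or WT replicate 2, at -0.38, -0.41 and -0.35. miR-470-3p and miR-883a-5p, other arms of listed hairpins and named after their values were seen, were at -0.47 and -0.49. Both passed (edgeR adjusted p = 0.0178 and 0.0488). The other arms tested, of miR-741, miR-743a, miR-743b, miR-871, miR-465a, miR-471 and miR-463, did not pass. The list does not hold every X-linked germ cell miRNA. Unlisted and named after their values were seen, miR-742-3p, miR-878-3p, miR-881-3p, miR-883b-3p and miR-547-3p were at -0.64, -0.67, -0.53, -0.54 and -0.85. All passed (edgeR adjusted p = 0.00217, 0.000955, 0.00904, 0.0234 and 0.0159). Also unlisted, miR-742-5p, miR-878-5p, miR-883b-5p, miR-201-5p, miR-465b-5p, miR-465c-5p and miR-465d-3p did not pass. The summed level of the 10 listed miRNAs did not overlap, at 37150 to 38012 in KO and 40755 to 40915 in WT. Shares without overlap were common, at 34.5% of the 348 tested miRNAs taken singly, and no such background was made for sums. Of 5 spermatogonial miRNAs 0 passed, with miR-21a-5p at -0.11, miR-31-5p at -0.36 and miR-146a-5p at 0.55, and a sum of 8328 to 10041 in KO and 9340 to 10670 in WT.

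Mesenchymal and peritubular miRNAs were mostly lower in KO. Of 6 tested, 0 rose and 5 fell, where 8.33% of all tested miRNAs rose and 13.8% fell. The median was -0.65 and the summed level 18773 to 23899 ppm in KO and 24711 to 34240 in WT. miR-143-3p, a smooth muscle miRNA, fell by 0.60 ± 0.16 (SE, edgeR adjusted p = 0.000869), and miR-10b-5p was at -0.01, not past the threshold. miR-145a-5p fell by 0.47 (edgeR adjusted p = 0.0216), a call lost without KO replicates 1 or 2 and without WT replicate 3, at -0.39, -0.34 and -0.21. The other 3, named after their values were seen, were miR-199a-3p, miR-199a-5p and miR-214-3p, at -0.69, -1.02 and -0.72. Endothelial miR-126a-3p and miR-126a-5p were at -0.07 and 0.15 and gonadal miR-202-5p and miR-202-3p at -0.15 and -0.25, and 0 of these 4 passed. The summed level of the endothelial pair was 8039 to 8717 in KO and 8333 to 8580 in WT, and that of the gonadal pair 1711 to 2246 and 1898 to 2357. With TMM factors of the whole table each fall in these lists turned to a positive value. The part of these cells in the members' values was not tested.

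**Figure D4:**
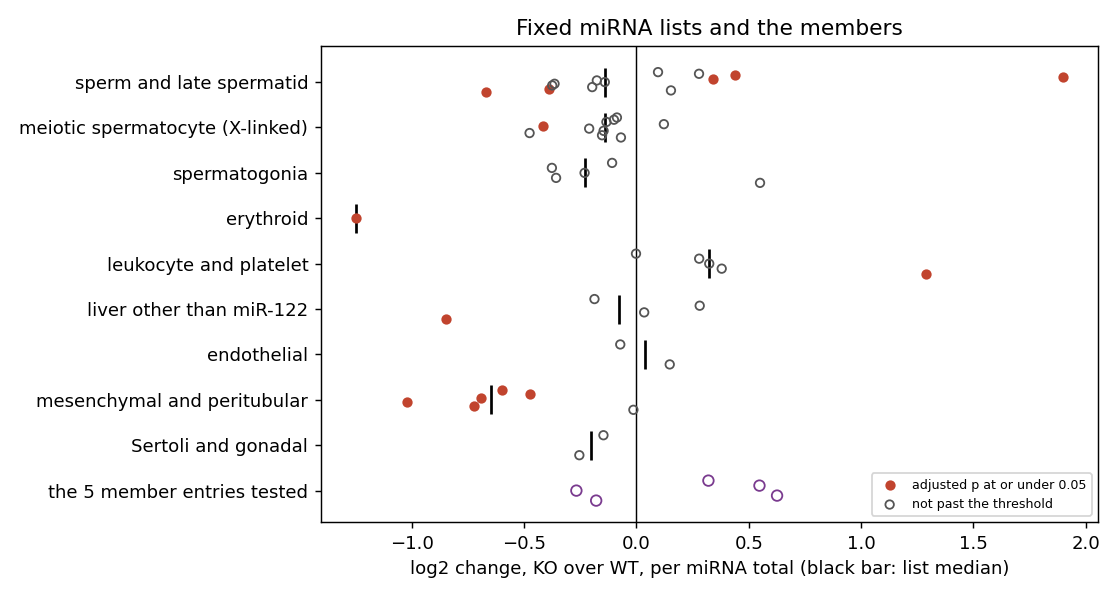
Log2 change of KO over WT per miRNA total (horizontal axis) for each tested miRNA of 9 lists and for the 5 tested member entries (rows). Filled points passed an adjusted p of 0.05, open points did not, and black bars are list medians. All 5 members are open points, and 5 of 6 mesenchymal and peritubular miRNAs are filled points below 0.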

How the data were processed

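The small RNA table holds raw counts per reference sequence and library, made with featureCounts v1.5.0-p2, per the file headers. The authors also used cutadapt, DESeq2 and build mm9, per the submitters' processing notes. Which aligner was run, and how multi-mapping reads were counted, is not stated there or in the headers. Indexed sequences carry 20 added bases, which were subtracted from lengths. The deposited piRNA table was not used.

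Members, lists and tests were chosen with earlier results of these data known, and the background of neighbouring miRNA pairs was added after the values were seen. The main test was edgeR 4.0.16 in R 4.3.3 (quasi-likelihood, two-sided) with library sizes set to miRNA totals, the filterByExpr filter (10 counts minimum, 15 in total), and Benjamini-Hochberg adjustment over 24682 RNAs at 0.05. The SE is the log2 change divided by the square root of F, and the approximate 95% interval uses normal quantiles. Shares and log2 ratios (0.5 added to each count) were compared with exact permutation tests in scipy 1.17.1 under Python 3.11.15. The fit was also run on simulated counts, in which a far smaller part of the RNAs changed than was called here. That run therefore does not test the adjustment under the conditions of these data. DESeq2 1.42.0, other scalings and filters, a replicate block and leaving out libraries were the alternatives. Named miRNAs were all members, up to 3 of each list by mean level, the 2 nearest by Pearson r per hairpin and the 3 most abundant. Replicates differed by more than sampling noise, with a chi-square of at least 4.44 per degree of freedom over miRNAs for each pair within a genotype. miR-469 and miR-486b-5p were not analysed here.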

Additional observations from a re-analysis of the deposited data

How the results depend on the processing

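At 6 counts of miR-191-3p or 13 of miR-1839-5p in the shallowest library, only large changes could be detected. With TMM factors of the whole table the log2 change was 2.26 for miR-191-5p, 2.46 for miR-191-3p, 1.67 for miR-425-5p, 2.54 for miR-425-3p and 1.75 for miR-1839-5p, each past the threshold. On that scale 8613 RNAs were called up and 10199 down (1556 and 18942 with miRNA totals), 338 and 2 miRNAs (29 and 48), and 47 and 0 miRNAs of the lists (4 and 10). With all counts of the table as denominator, the KO minus WT differences (ppm of the table) of miR-425-5p and miR-1839-5p turned to 394.8 and 10.2. Also with TMM factors of the whole table, the log2 change turned positive for miR-103-3p (1.54), miR-99a-5p (1.27), miR-741-3p (1.83), miR-743b-3p (1.79), miR-743a-3p (1.84), miR-880-3p (1.5), miR-21a-5p (1.80), miR-31-5p (1.56), miR-451a (0.67), miR-142a-3p (1.93), miR-192-5p (1.74), miR-193b-3p (1.09), miR-126a-3p (1.85), miR-145a-5p (1.48), miR-143-3p (1.33), miR-10b-5p (1.91), miR-199a-3p (1.24), miR-199a-5p (0.90), miR-214-3p (1.21), miR-202-5p (1.78), miR-202-3p (1.67), miR-1195 (1.39), miR-423-5p (1.23), miR-463-5p (1.85), miR-471-5p (1.77) and miR-16-5p (1.85). That scaling leaves the larger miRNA share of the KO libraries in the values.

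Changes near 0 turned sign under other settings. DESeq2 with median of ratios over miRNAs gave 0.0067 for miR-741-3p, 0.090 for miR-142a-3p, 0.025 for miR-126a-3p, 0.079 for miR-10b-5p, 0.026 for miR-463-5p and 0.026 for miR-16-5p. TMM factors of the miRNAs gave 0.079 for miR-142a-3p, 0.0098 for miR-126a-3p, 0.065 for miR-10b-5p, 0.012 for miR-463-5p and 0.014 for miR-16-5p. Without both replicate 3 libraries miR-142a-3p was at 0.16 and miR-202-5p at 0.0066, and with the 5 highest miRNAs left out of the total miR-101b-3p was at -0.029 and miR-19b-3p at -0.027. With each library left out in turn, ranges that crossed 0 were -0.20 to 0.0040 for miR-743a-3p, -0.0077 to 0.76 for miR-146a-5p, -0.16 to 0.091 for miR-142a-3p, -0.062 to 0.17 for miR-101b-3p, -0.11 to 0.12 for miR-10b-5p, -0.024 to 0.074 for miR-19b-3p, -0.16 to 0.020 for miR-16-5p, and -0.36 to 0.058 for the log2 ratio of miR-425-5p to miR-1839-5p. That of miR-191-5p ran from 0.19 to 0.41, and miRNAs of the lists called up from 2 to 4. The cause was not tested.

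Without the filter, miR-191-5p passed at 0.32 (edgeR adjusted p = 0.0498). With the replicate block it passed at 0.32 (edgeR adjusted p = 0.00567), and miR-142a-3p was at 0.0041. The block moved the called miRNAs to 34 up and 57 down. The labels do not say that equal numbers mark paired libraries. miRNA deviations of same-numbered libraries correlated at -0.13, 0.41 and 0.38 for replicates 1, 2 and 3. Those of other-numbered libraries ranged from -0.47 (KO replicate 3 with WT replicate 2) to 0.17 (KO replicate 1 with WT replicate 2). Whether the libraries were paired was not tested. DESeq2 with miRNA totals called 18 miRNAs up, 2 of them in the lists, and with median of ratios 21 down, 6 of them in the lists, while TMM factors of the miRNAs left 6 list miRNAs down. A minimum count of 50, with fewer RNAs tested, called 8124 RNAs down and 17 miRNAs up, 2 of them in the lists.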
